A study of Homo sapiens with 6 samples.

Results

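The genes of the antioxidant, glutathione and iron storage systems were examined in A375, a BRAF-mutant human melanoma cell line, exposed for 6 h to the solvent DMSO or to CuB. CuB is cucurbitacin B according to the series title, a plant triterpenoid, and the title places reactive oxygen species upstream of cell death. Each group had 3 libraries of polyadenylated RNA. The written protocol gives 0.2 µM CuB, whereas the names of the libraries give 100 nM, so the dose is uncertain. DMSO was the only control, and all 6 libraries came from this single cell line. Whether the replicates were separate cultures is not said in the labels, so the p-values rest on a spread between libraries that may be technical.

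The set consisted of 39 genes chosen by symbol for their known roles, out of 58735 genes in the deposited expression table. Expression is given as FPKM, a fragment count divided by the length of the gene and a measure of the library's size. Where it was looked up, this length was that of all annotated exons of the gene together. Levels of different genes therefore compare only per unit of that length. A mean of at least 1 FPKM over the 6 libraries was required for the test across all genes. Of the 39 genes, 38 met it, and GSTM2 did not. A gene was said to have risen or fallen with CuB when its Benjamini-Hochberg adjusted p from limma was under 0.05. Differences are given as log2(FPKM + 1), with CuB minus DMSO, and on this scale changes of genes with low values come out too small.

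Cells remove superoxide with superoxide dismutases, which turn it into hydrogen peroxide. Catalase, peroxiredoxins and glutathione peroxidases then reduce the peroxide. Peroxiredoxins are recharged by thioredoxin and thioredoxin reductase, glutathione peroxidases by glutathione and glutathione reductase, and both routes draw on NADPH. Ferritin stores iron in a form that does not generate radicals, and heme oxygenase releases iron from heme. Many of these genes carry antioxidant response elements, the DNA sites of the transcription factor NRF2, in their regulatory regions.

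The libraries held from 14845976 to 16137093 fragments assigned to genes. Replicates differed by more than sampling noise, with chi-square values over their degrees of freedom between 2.80 and 24.3, and the 2 highest values, 17.8 and 24.3, were those of the pairs with DMSO replicate 2. In that library the deviation of a gene from its group mean went up with GC content (Spearman 0.774 over 13265 genes), whereas the values were -0.542 and -0.703 in DMSO replicates 1 and 3, and -0.667, 0.262 and 0.648 in CuB replicates 1, 2 and 3. A correction for GC content left the number of genes in the set that rose at 9 and changed the number that fell from 7 to 13. The 12 melanoma markers summed to 355 to 499 FPKM with DMSO and 380 to 490.3 FPKM with CuB, with SOX10 at 162 to 256 and 184 to 245 FPKM, and MITF at 3.42 to 5.17 FPKM over all libraries. The pigment cell marker MLANA was at 0.571 to 1.29 FPKM, and PMEL, TYR and DCT were at most 0.241 FPKM in any library. Of the 8 that were tested 2 rose (AXL and NGFR) and 2 fell (S100B and PRAME). These were 25.0% each, against 22.9% and 15.6% of all tested genes. Summed levels of 3 fibroblast and 3 endothelial markers were at most 1.22 and 0.548 FPKM in any library. Of the immune and blood markers, PTPRC was at most 0.0133 FPKM and HBB was at 0. The 4 keratinocyte markers summed to 16.0 to 22.1 FPKM with DMSO and 25.9 to 28.4 FPKM with CuB, mostly from KRT10, with KRT1 at 0. Both that were tested passed as higher, KRT10 (0.51, limma adjusted p = 0.0179) and KRT14 (0.61, 0.0337, at 1.04 ± 0.263 and 2.14 ± 0.602 FPKM), although neither passed with equal fragment totals or without DMSO replicate 1, DMSO replicate 3, CuB replicate 2 or CuB replicate 3 (highest limma adjusted p over all alternatives 0.0698 and 0.108). Beside the 2 keratinocyte markers, 22.9% of all tested genes rose. The part of these cell type markers in the results below was not tested.

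The 39 genes moved in both directions. With CuB, 9 of 38 tested genes rose (23.7%, against 22.9% of all 13273 tested genes) and 7 fell (18.4%, against 15.6%). The balance depended on scaling: 6 rose and 11 fell with equal sums of FPKM, 7 rose and 14 fell under quantile normalization, and 6 rose and 14 fell with equal fragment totals. Without CuB replicate 2, 7 rose and 4 fell. As deposited, 16 genes changed (42.1%, against 38.6%), so the share that changed was near that of all genes. Of the set, 6 genes rose at least 2-fold on the log2(FPKM + 1) scale (15.8%, against 4.87%) and 1, SOD3, fell at least 2-fold (against 2.37%). The 3 CuB values lay all above or all below the 3 DMSO values in 19 genes (50.0%, against 51.5%). The median log2 difference of the set was -0.0045, beside 0.0548 over all tested genes. Summed over the 39 genes, expression made up 0.827% to 0.913% of all FPKM with DMSO and 0.866% to 0.904% with CuB, and these ranges overlapped. As deposited, the sums were 2012 to 2230 FPKM with DMSO and 2236 to 2354 FPKM with CuB, without overlap, so this too depended on scaling. The plot of log2 differences by role shows rises and falls side by side among the superoxide dismutases, and calls in a single direction within each of the other roles that had any. The samples are bulk RNA, in which a change in all cells and a larger change in some of them cannot be told apart.

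**Figure D1:**
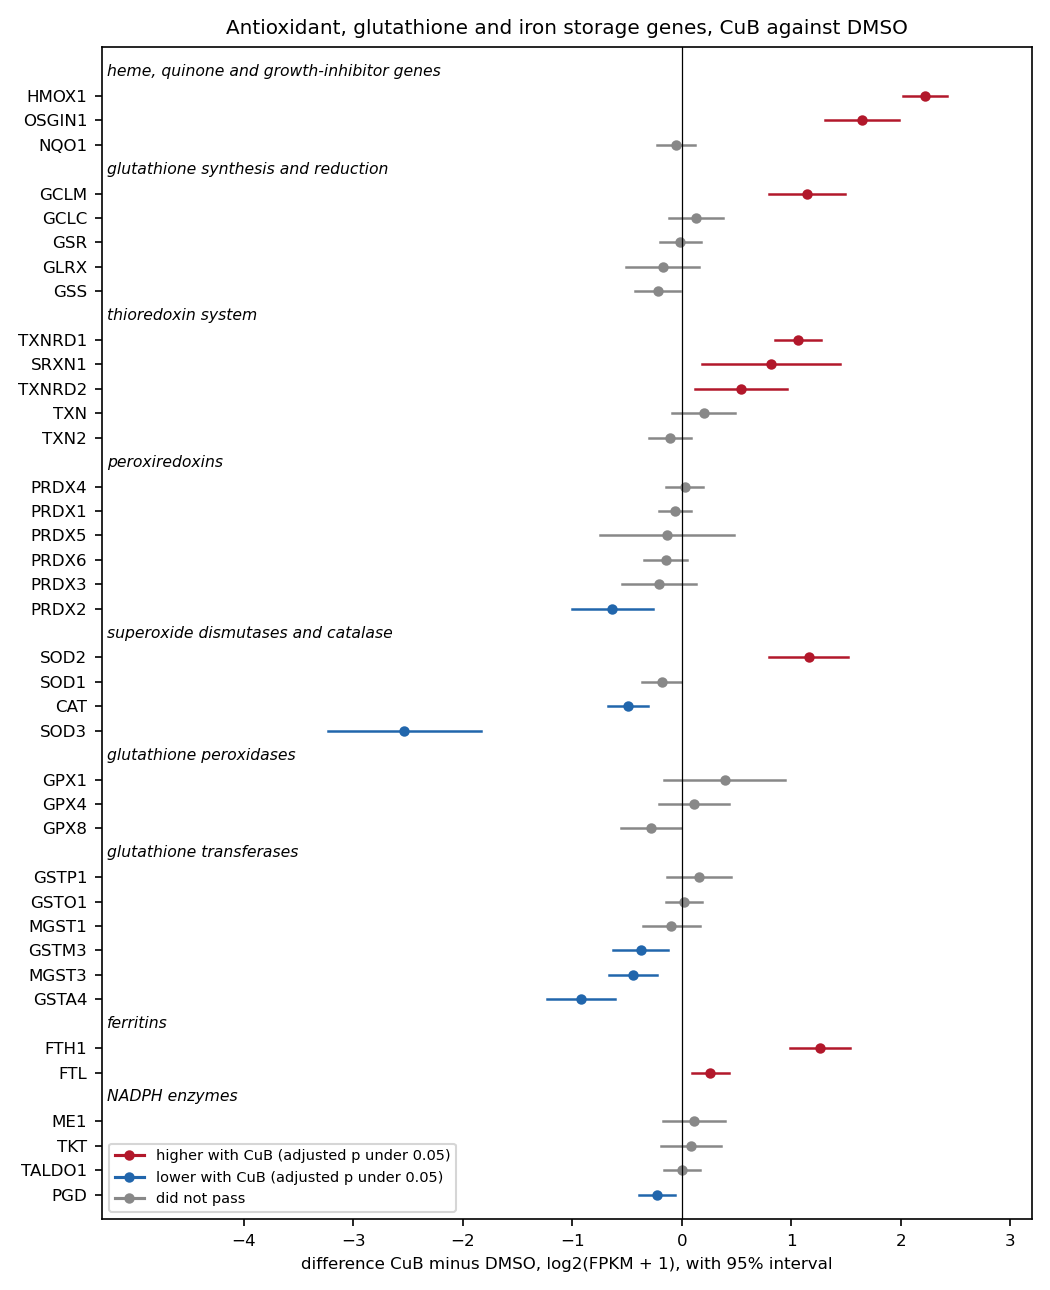
Difference between CuB and DMSO on the log2(FPKM + 1) scale for the 38 tested genes, grouped by role; points are the estimates and lines their 95% intervals from limma (3 libraries per group). Red marks the 9 genes that rose, blue the 7 that fell and grey the 22 that did not pass; HMOX1 lies at 2.22 and SOD3 at -2.53.

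HMOX1 and OSGIN1 rose, while NQO1 did not pass. HMOX1 (ENSG00000100292, GRCh38 chromosome 22 from 35380361 to 35394214), the inducible heme oxygenase, was at 1.33, 1.47 and 1.25 FPKM in DMSO replicates 1, 2 and 3 and at 9.77, 9.67 and 10.5 FPKM in CuB replicates 1, 2 and 3. Every CuB library was far above every DMSO library. The group means were 1.35 ± 0.112 and 9.98 ± 0.444 FPKM (SD, n = 3 libraries in each group, as in all that follows), a ratio of 7.39, and the log2 difference was 2.22 (SE 0.0860, limma adjusted p = 7.84e-06). OSGIN1 (ENSG00000140961, chromosome 16 from 83948282 to 83966332), which encodes a growth inhibitor induced by oxidative stress, was at 0.471, 0.388 and 0.259 FPKM with DMSO and 2.65, 3.59 and 3.73 FPKM with CuB. It was scarcely expressed without CuB, with as few as 14 fragments in a library, and well separated with it. Its means had a ratio of 8.92 and its log2 difference was 1.65 (SE 0.143, limma adjusted p = 0.00024), which became 2.87 with a pseudocount of 0.1 and 3.09 with limma-voom on recovered fragments. NQO1, the quinone reductase often used to read out NRF2 activity, was highly expressed in both groups, at 132, 126 and 129 FPKM with DMSO and 133, 117 and 122 FPKM with CuB. The NQO1 groups overlapped and the log2 difference was -0.06 (95% interval -0.23 to 0.12, limma adjusted p = 0.582). Under quantile normalization NQO1 passed as lower (-0.29, limma adjusted p = 0.0265) and with equal fragment totals (-0.22, 0.0436).

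In glutathione synthesis 1 of 5 genes rose (20.0%, against 22.9% of all tested genes), the regulatory subunit of the rate-limiting enzyme. GCLM (ENSG00000023909, chromosome 1 from 93885205 to 93909456), which encodes the modifier subunit of glutamate-cysteine ligase, was at 7.02, 5.29 and 7.34 FPKM with DMSO and 18.3, 14.6 and 14.1 FPKM with CuB. Its lowest CuB library was well above its highest DMSO library, and the log2 difference was 1.14 (SE 0.146, limma adjusted p = 0.00128). GCLC, the catalytic subunit of the same enzyme, had means of 6.85 ± 0.868 and 7.56 ± 0.457 FPKM, with groups that overlapped (0.13, 95% interval -0.12 to 0.38, limma adjusted p = 0.372). The 2 subunits thus had similar FPKM without CuB and different FPKM with it. The similarity without CuB rests on the lengths used, 8646 bases for GCLC and 5420 for GCLM. In DMSO libraries GCLC had 856 to 1049 fragments and GCLM 469 to 621. GSS, glutathione synthetase, had means of 15.3 ± 0.95 and 13.0 ± 0.898 FPKM without overlap (-0.22, limma adjusted p = 0.0887). It passed as lower in 6 of 19 alternatives, among them equal sums of FPKM (-0.32, limma adjusted p = 0.0303), equal fragment totals (-0.37, 0.0161) and the GC correction (-0.27, 0.0019). GSR, glutathione reductase, had means of 15.8 ± 0.248 and 15.6 ± 0.959 FPKM. GLRX, glutaredoxin 1, which removes glutathione from proteins, had means of 2.34 ± 0.223 and 1.98 ± 0.457 FPKM. Neither GSR nor GLRX passed in any alternative.

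The thioredoxin system had 3 of 5 genes higher with CuB: both reductases and sulfiredoxin. TXNRD1 (ENSG00000198431, chromosome 12 from 104215779 to 104350305), the cytosolic thioredoxin reductase, was at 47.4, 42.9 and 49.0 FPKM with DMSO and 107, 97.1 and 91.0 FPKM with CuB. Its level rose from a high starting point, without overlap (ratio of means 2.12, log2 difference 1.06, SE 0.0898, limma adjusted p = 0.000213). TXNRD2, the mitochondrial reductase, was at 2.54, 3.63 and 2.24 FPKM with DMSO and 3.75, 4.24 and 5.62 FPKM with CuB. Those groups were separated by a small gap between DMSO replicate 2 and CuB replicate 1 (0.54, SE 0.177, limma adjusted p = 0.0476). SRXN1, sulfiredoxin, which repairs overoxidized peroxiredoxins, was at 1.79, 3.03 and 1.31 FPKM with DMSO and 2.80, 4.56 and 5.68 FPKM with CuB. SRXN1 was the only gene of the set that passed with groups that overlapped (0.81, SE 0.267, limma adjusted p = 0.0486), and in both SRXN1 and TXNRD2 the highest DMSO value came from replicate 2. Both calls were lost without DMSO replicate 1 (limma adjusted p = 0.132 for TXNRD2 and 0.126 for SRXN1), without DMSO replicate 3 (0.131 and 0.13), without CuB replicate 2 (0.102 and 0.133) and without CuB replicate 3 (0.132 and 0.134). With equal fragment totals they were lost too (0.11 and 0.0826). In all, TXNRD2 lost the call in 9 of 18 alternatives and SRXN1 in 8 of 18, both also with no filter and with equal sums of FPKM. The thioredoxins themselves did not pass. TXN, the cytosolic form, had means of 138 ± 16.8 and 158 ± 19.3 FPKM (0.20, limma adjusted p = 0.231), and TXN2, the mitochondrial form, 30.7 ± 1.84 and 28.4 ± 1.29 FPKM (-0.11, limma adjusted p = 0.332). TXN2 passed as lower under quantile normalization (-0.32, limma adjusted p = 0.0161), with equal fragment totals (-0.27, 0.0393) and after the GC correction (-0.17, 0.0213). Most exonic bases of SRXN1 (85.0%) are shared with AL121758.1, an overlapping gene model on the same strand listed at 0.004 FPKM on average.

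The promoter windows of several of these genes are shown because they hold the letters of an antioxidant response element or of an AP-1 element, the site of JUN and FOS factors, and because their genes differed in response. RefSeq promoter sequences (GRCh38.p14) were matched for 31 of the 39 genes, in 42 windows; HMOX1, FTH1, GSR, GSS, PRDX1, PRDX6, SOD1 and TXN2 were not matched. The 250 bases before each start site were searched on both strands for TGACNNNGC, the core of the antioxidant response element, and for TGANTCA, the AP-1 element, which can overlap each other. The first was in 8 of 42 windows (19.0%), against 10.9% of 35116 windows of all genes, and the second in 3 of 42 (7.14%), against 6.57%. Below, the 150 bases before a start site are given 5′ to 3′ on the strand of the gene, with the matched letters in capitals.
GCLM, chr1:93909431-93909580, minus strand: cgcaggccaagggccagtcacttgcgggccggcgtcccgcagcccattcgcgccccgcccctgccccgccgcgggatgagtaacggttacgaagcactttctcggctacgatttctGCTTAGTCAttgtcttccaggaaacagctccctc
TXNRD1, chr12:104215629-104215778, plus strand: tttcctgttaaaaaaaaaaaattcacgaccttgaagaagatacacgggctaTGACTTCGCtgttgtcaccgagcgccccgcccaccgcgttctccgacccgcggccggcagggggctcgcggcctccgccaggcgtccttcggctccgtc
OSGIN1, chr16:83953090-83953239, plus strand: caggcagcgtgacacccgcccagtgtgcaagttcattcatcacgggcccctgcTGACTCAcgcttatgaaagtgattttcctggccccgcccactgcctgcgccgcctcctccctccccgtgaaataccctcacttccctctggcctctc
ME1, chr6:83431052-83431201, minus strand: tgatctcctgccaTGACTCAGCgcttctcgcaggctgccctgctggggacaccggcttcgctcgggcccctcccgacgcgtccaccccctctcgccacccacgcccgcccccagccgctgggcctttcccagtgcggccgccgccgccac

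The match in GCLM begins 34 bases before the start site and reads on the opposite strand, and that in TXNRD1 begins 99 bases before it. OSGIN1 holds the AP-1 letters 97 bases before its start site, and ME1, cytosolic malic enzyme, holds both motifs in the same letters at 137 bases. GCLM, TXNRD1 and OSGIN1 rose with CuB, whereas ME1 did not pass. The antioxidant response element letters were also in the windows of PGD and GSTA4, which fell, of GSTO1 and GSTP1, which did not pass, and of a second TXNRD1 window. GSTP1, like ME1, held both motifs. A match is a description of the letters, and binding was not measured.

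Of the 6 peroxiredoxins, the abundant thiol peroxidases, 1 fell (16.7%, against 15.6% of all tested genes) and 5 did not pass. PRDX2 (ENSG00000167815, chromosome 19 from 12796820 to 12801859), a cytosolic form, was at 67.9, 91.3 and 61.7 FPKM with DMSO and 41.2, 48.0 and 50.6 FPKM with CuB. The groups did not overlap and the DMSO values were spread by replicate 2 (-0.63, SE 0.156, limma adjusted p = 0.0177). The PRDX2 call was narrowly lost without CuB replicate 1 or CuB replicate 2 (limma adjusted p = 0.0521 and 0.0519), and when no filter on low values was applied (0.0528). PRDX1, the most abundant of the family at 167 ± 2.64 and 160.4 ± 5.23 FPKM, PRDX6 at 121 ± 7.49 and 109 ± 7.45 FPKM and PRDX3, the mitochondrial form, at 66.0 ± 9.75 and 57.1 ± 8.28 FPKM had differences of -0.06, -0.15 and -0.21 that did not pass. Each of these passed as lower in some alternatives, PRDX1 in 2, PRDX6 in 5 and PRDX3 in 2 of 19, mainly under other scalings or the GC correction. PRDX4, the endoplasmic reticulum form, was at 34.4 ± 1.40 and 35.0 ± 0.965 FPKM. PRDX5 had wide replicates, at 108, 183 and 95.7 FPKM with DMSO and 89.5, 117 and 136 FPKM with CuB, so that its 95% interval ran from -0.75 to 0.48. Summed over the family, the 6 genes held 0.229% to 0.265% of all FPKM with DMSO and 0.193% to 0.208% with CuB, without overlap.

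Of the 3 superoxide dismutases 1 rose, 1 fell and 1 did not pass, and catalase fell. Thus 3 of these 4 genes changed (75.0%, against 38.6% of all tested genes). SOD2 (ENSG00000112096, chromosome 6 from 159669057 to 159745186), the mitochondrial manganese enzyme, was at 2.75, 2.73 and 3.99 FPKM with DMSO and 9.37, 8.42 and 6.96 FPKM with CuB. Every CuB library was above every DMSO library (ratio of means 2.61, log2 difference 1.16, SE 0.153, limma adjusted p = 0.00148). SOD3 (ENSG00000109610, chromosome 4 from 24789912 to 24800842), the secreted extracellular enzyme, was at 13.0, 25.9 and 12.0 FPKM with DMSO and 1.26, 2.24 and 2.45 FPKM with CuB. Its DMSO replicate 2 stood above the other two, yet the lowest DMSO library was far above the highest CuB library. The SOD3 mean was 8.56-fold lower with CuB, the steepest fall of the 39 genes (-2.53, SE 0.297, limma adjusted p = 0.000895). SOD1, the cytosolic copper-zinc enzyme, was at 55.1, 53.5 and 54.8 FPKM with DMSO and 50.9, 44.7 and 48.2 FPKM with CuB. These did not overlap, but SOD1 did not pass (-0.18, SE 0.0755, limma adjusted p = 0.0966). It passed as lower with equal sums of FPKM (-0.28, limma adjusted p = 0.0201), quantile normalization (-0.42, 0.00659), equal fragment totals (-0.35, 0.01) and the GC correction (-0.23, 0.0498). CAT (ENSG00000121691, chromosome 11 from 34438925 to 34472062), catalase, which breaks down hydrogen peroxide in peroxisomes, was at 28.3, 25.9 and 29.1 FPKM with DMSO and 19.6, 18.9 and 19.7 FPKM with CuB. Replicates of CAT were tight and the groups far apart for their spread (-0.49, SE 0.0782, limma adjusted p = 0.00312). The table lists SOD2 under a second identifier as well (ENSG00000285441), at 0 in all 6 libraries, which shares 845 exonic bases with the first.

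None of the 3 glutathione peroxidases passed with limma as run on the deposited values, although 1 had an unadjusted p under 0.05 and 1 passed with limma-voom, GPX8 in both cases. GPX1, the cytosolic selenoenzyme, was at 84.4, 139 and 80.3 FPKM with DMSO and 104, 131 and 156 FPKM with CuB. DMSO replicate 2 lay among the CuB values, and the difference was 0.39 (95% interval -0.16 to 0.95, limma adjusted p = 0.228). Without DMSO replicate 2 GPX1 passed as higher (0.64, limma adjusted p = 0.0222), as it did after the GC correction (0.32, 0.00976). GPX4, which reduces lipid peroxides and restrains ferroptosis, was at 30.2, 39.9 and 28.7 FPKM with DMSO and 33.9, 33.7 and 38.7 FPKM with CuB. The GPX4 groups overlapped in full (0.11, 95% interval -0.21 to 0.43, limma adjusted p = 0.54) and the gene did not pass in any alternative. GPX8, a peroxidase of the endoplasmic reticulum, was at 12.8 ± 1.77 and 10.3 ± 0.654 FPKM (-0.28, limma adjusted p = 0.095). GPX8 passed as lower in 7 of 19 alternatives, including without DMSO replicate 2 (-0.39, limma adjusted p = 0.0118) and with limma-voom (-0.37, 0.0454).

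Glutathione transferases attach glutathione to reactive compounds, and 3 of the 6 tested fell (50.0%, against 15.6% of all tested genes). GSTA4 (ENSG00000170899, chromosome 6 from 52977948 to 52995378), which acts on the lipid peroxidation product hydroxynonenal, was at 7.25, 5.34 and 7.63 FPKM with DMSO and 3.02, 3.0 and 3.14 FPKM with CuB. All CuB libraries lay close together below the lowest DMSO library (-0.92, SE 0.130, limma adjusted p = 0.00192). MGST3, a microsomal transferase, was at 2.97, 3.34 and 3.01 FPKM with DMSO and 2.12, 2.0 and 1.93 FPKM with CuB. Its separation was also complete (-0.44, SE 0.0929, limma adjusted p = 0.00957), and the difference was -0.69 with limma-voom. GSTM3, a mu-class enzyme, was at 2.25, 2.16 and 2.37 FPKM with DMSO and 1.74, 1.44 and 1.38 FPKM with CuB. The groups did not overlap (-0.37, SE 0.106, limma adjusted p = 0.0299; -0.64 with limma-voom). That call was lost without DMSO replicate 1 (limma adjusted p = 0.0891), DMSO replicate 3 (0.0907), CuB replicate 2 (0.105) or CuB replicate 3 (0.0955), and under quantile normalization (0.0573). In all, GSTM3 lost the call in 7 of 18 alternatives. GSTP1, the pi-class enzyme and the most abundant of this family, was at 128 ± 21.7 and 142 ± 9.26 FPKM (0.16, limma adjusted p = 0.352), and passed as higher only without DMSO replicate 2 (0.29, 0.0211). GSTO1, the omega-class enzyme, at 41.2 ± 1.04 and 41.9 ± 1.25 FPKM, and MGST1, at 5.30 ± 0.674 and 4.88 ± 0.431 FPKM, did not pass in any alternative. GSTM2 was below the filter, with 124 fragments over the DMSO libraries and 41 over the CuB libraries. Its level was 2.81 times as high with DMSO (exact 95% interval 1.96 to 4.11, counting error only, without the spread between replicates). In the alternative with no filter GSTM2 passed as lower (-0.23, limma adjusted p = 0.031). Mu-class genes are close in sequence and GSTM2 shares exonic bases with GSTM1 and GSTM4, so fragments may have been divided between them.

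Both ferritin subunits were higher with CuB, the heavy chain by 1.26 and the light chain by 0.26 on the log2 scale. Of all tested genes 22.9% rose. FTH1 (ENSG00000167996, chromosome 11 from 61959718 to 61967660), the heavy chain that oxidizes iron for storage, was at 67.6, 86.8 and 65.1 FPKM with DMSO and 175, 171 and 181 FPKM with CuB. The lowest CuB library was far above the highest DMSO library (ratio of means 2.40, log2 difference 1.26, SE 0.115, limma adjusted p = 0.000305). FTL (ENSG00000087086, chromosome 19 from 48965301 to 48966878), the light chain that helps iron mineralize, was the most abundant of the 39 genes, at 443, 432 and 417 FPKM with DMSO and 558, 482 and 511 FPKM with CuB. FTL groups did not overlap, and the difference was small (ratio of means 1.2, log2 difference 0.26, SE 0.0714, limma adjusted p = 0.0269). The FTL call was lost in 13 of 19 alternatives. It was 0.16 with equal sums of FPKM (limma adjusted p = 0.1), 0.09 with equal fragment totals (0.315) and 0.20 after the GC correction (0.153). It was also lost without DMSO replicate 1 (0.0704), DMSO replicate 3 (0.0852), CuB replicate 1 (0.061) or CuB replicate 3 (0.0708). Together the 2 ferritin genes went from 0.198% to 0.213% of all FPKM with DMSO to 0.252% to 0.276% with CuB. Ferritin genes have many pseudogenes in the genome, and FTH1 shares 62.4% of its exonic bases with BEST1 on the opposite strand, listed at 0.376 FPKM on average, in libraries that do not mark strand.

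Of the 4 NADPH enzymes, 1 fell slightly (25.0%, against 15.6% of all tested genes). PGD (ENSG00000142657, chromosome 1 from 10398592 to 10420144), phosphogluconate dehydrogenase of the pentose phosphate pathway, was at 57.0, 62.4 and 59.0 FPKM with DMSO and 50.1, 50.9 and 50.7 FPKM with CuB. Every CuB value was below every DMSO value (-0.23, SE 0.0694, limma adjusted p = 0.0384). The PGD call was lost without DMSO replicate 1 (limma adjusted p = 0.0859), DMSO replicate 3 (0.095), CuB replicate 1 (0.0845), CuB replicate 2 (0.127) or CuB replicate 3 (0.103), whereas the difference was -0.39 with equal fragment totals and -0.47 under quantile normalization, and passed in both. TALDO1, transaldolase, was at 32.3 ± 0.986 and 32.4 ± 0.549 FPKM, and TKT, transketolase, at 63.3 ± 8.90 and 67.0 ± 5.49 FPKM. ME1, whose promoter window holds both motifs, was at 12.2, 10.7 and 12.3 FPKM with DMSO and 15.1, 11.4 and 11.9 FPKM with CuB. Groups overlapped in all 3 of these genes, with differences of 0.00, 0.09 and 0.11. The plot of FPKM by library shows the 16 genes that changed and the spread of their replicates.

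**Figure D2:**
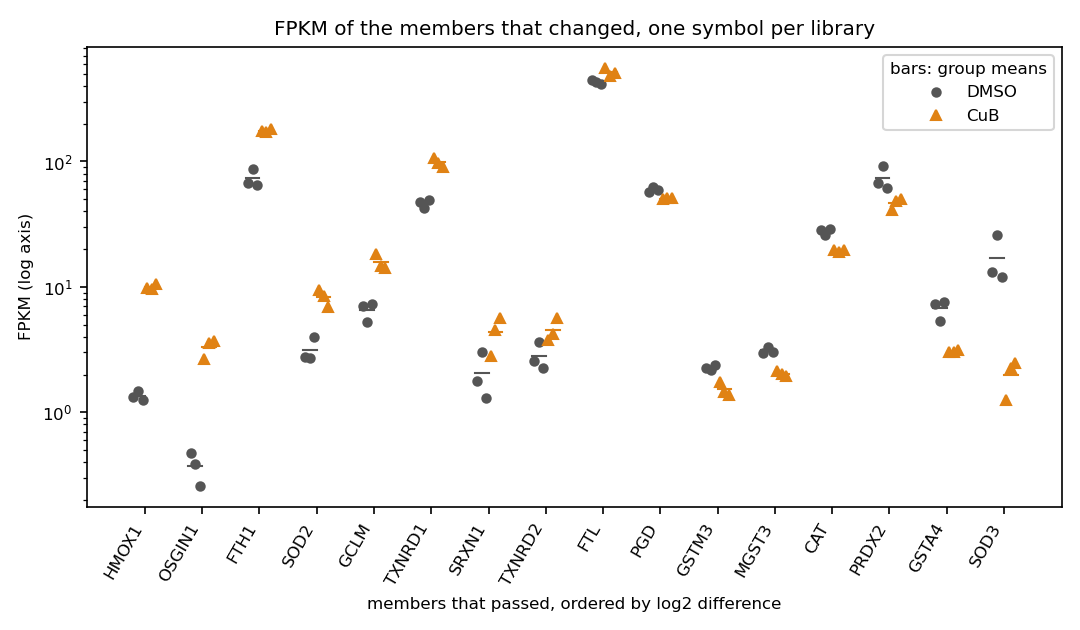
FPKM on a log axis in each of the 6 libraries for the 16 genes that changed, ordered by log2 difference; circles are DMSO libraries, triangles CuB libraries and bars the group means. Groups were separate in 15 of them and overlapped in SRXN1, and SOD3 dropped from 12.0 to 25.9 FPKM with DMSO to 1.26 to 2.45 FPKM with CuB. These genes were picked by the same values, so their separation is no further evidence; among all tested genes 51.5% were separate.

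Ratios of related genes within a library do not depend on a scaling factor shared by all genes of that library. Differences between libraries that go with GC content can still alter them, and no ratio was corrected for GC content. Such ratios were compared for 6 pairs by an exact two-sided permutation test, whose smallest possible p with 3 libraries in each group is 0.1, so none could pass 0.05. The FTH1 to FTL ratio was 0.153, 0.201 and 0.156 with DMSO and 0.314, 0.354 and 0.355 with CuB, so heavy chain mRNA was higher relative to light chain mRNA in every CuB library. The GCLM to GCLC ratio was 1.04, 0.874 and 0.944 with DMSO and 2.29, 1.93 and 1.98 with CuB. SOD2 to SOD1 went from 0.0498, 0.0511 and 0.0728 to 0.184, 0.188 and 0.144, and SOD3 to SOD1 from 0.237, 0.484 and 0.22 to 0.0248, 0.0501 and 0.0509. Mitochondrial and extracellular dismutase mRNA thus moved in opposite directions relative to the cytosolic form. The PRDX1 to PRDX2 ratio was 2.43, 1.87 and 2.71 with DMSO and 3.97, 3.21 and 3.23 with CuB. In these 5 pairs the groups did not overlap, and the differences of the log2 ratio were 1.02, 1.12, 1.59, -2.88 and 0.58 (each exact permutation p = 0.1, adjusted over the 6 pairs 0.12). Each of the 5 held a gene that passed on its own, and 51.5% of all tested single genes had separate groups. The share among other pairs of genes was not computed. TXNRD1 to TXNRD2 ratios overlapped, at 18.6, 11.8 and 21.8 with DMSO and 28.4, 22.9 and 16.2 with CuB (0.38, exact permutation p = 0.400, adjusted 0.400). The TXNRD1 to TXNRD2 difference was 0.12 without DMSO replicate 2, 0.19 without CuB replicate 1 and 0.60 without CuB replicate 3.

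**Figure D3:**
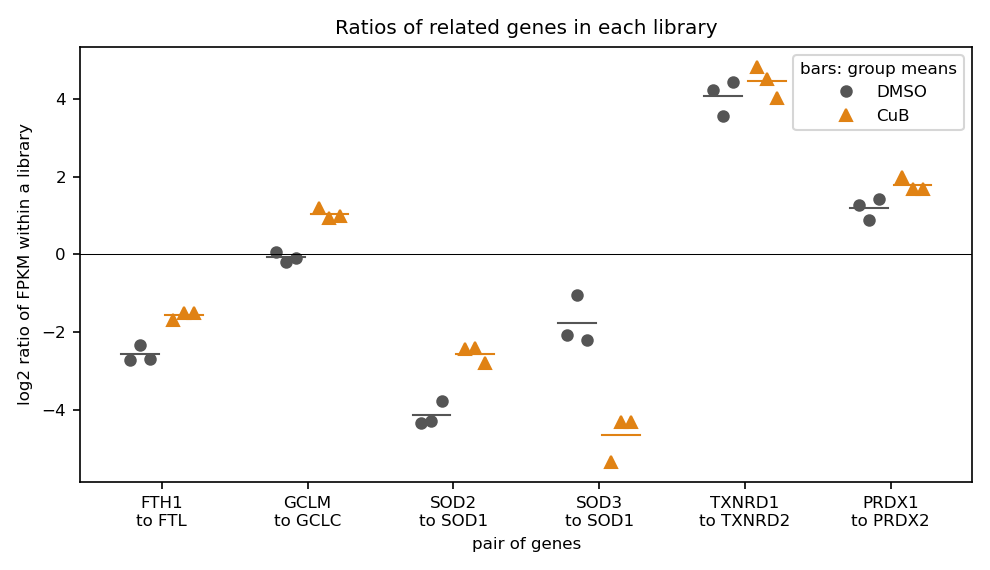
Log2 ratio of the FPKM of 2 related genes in each library for 6 pairs; circles are DMSO libraries, triangles CuB libraries and bars the group means. Groups were separate in 5 pairs, by 1.02 for FTH1 to FTL and -2.88 for SOD3 to SOD1 on the log2 scale, and overlapped for TXNRD1 to TXNRD2. Among all tested single genes 51.5% were separate.

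Across 19 alternative ways of processing or subsetting the data, 10 of the 16 calls were kept in every one that tested the gene. These were the rises of HMOX1, OSGIN1, GCLM, TXNRD1, SOD2 and FTH1 and the falls of SOD3, CAT, GSTA4 and MGST3. The other 6, TXNRD2, SRXN1, FTL, PRDX2, GSTM3 and PGD, lost the call in at least 1 alternative. Of the 22 genes that did not pass, 11 did not pass in any alternative: GCLC, GSR, GLRX, TXN, PRDX4, PRDX5, GPX4, GSTO1, MGST1, TKT and ME1. The plot of values under the alternatives shows that the 6 genes that rose at least 2-fold stayed at 0.83 or above on the log2 scale.

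**Figure D4:**
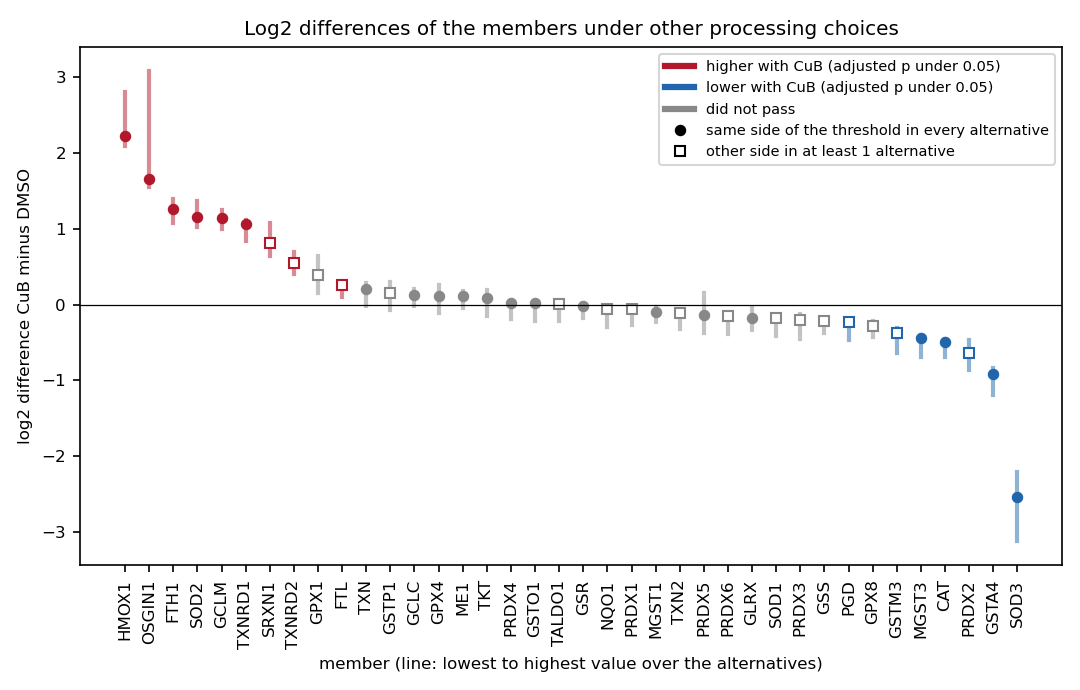
Log2 difference of each of the 38 tested genes as reported (symbol) and its lowest to highest value over the 19 alternatives (line); filled circles mark genes on the same side of the threshold in every alternative, open squares the others. Red, blue and grey stand for rose, fell and did not pass; the lines of TXNRD1 and SOD3 run from 0.83 to 1.12 and from -3.12 to -2.20.

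Other genes of the same pathways were described from lists of 108 genes, of which 80 were tested. With CuB 13 rose (16.2%, against 22.9% of all tested genes) and 15 fell (18.8%, against 15.6%), so 35.0% changed, against 38.6%, and 9 rose at least 2-fold (11.2%, against 4.87%). The number that fell was 5 without CuB replicate 2 or DMSO replicate 1, 8 without CuB replicate 3 or DMSO replicate 3, and 27 after the GC correction. Among 10 tested genes of glutathione supply and export 4 rose and 1 fell. CHAC1, which degrades glutathione, was at 1.61, 2.91 and 1.77 FPKM with DMSO and 46.0, 53.6 and 56.8 FPKM with CuB (4.12, limma adjusted p = 1e-05). CTH, which makes cysteine from cystathionine, had means of 2.77 ± 0.183 and 34.2 ± 4.37 FPKM (3.21, limma adjusted p = 5.45e-06), and SLC3A2, the shared heavy chain of amino acid transporters, 23.1 ± 4.03 and 169.9 ± 14.9 FPKM (2.84, limma adjusted p = 1.67e-05). SLC7A11, the cystine transporter that pairs with SLC3A2 and was named after its values were seen, rose too (1.65, limma adjusted p = 0.000182). GGT7, a member of the gamma-glutamyltransferase family that was also named after its values were seen, fell (-0.54, limma adjusted p = 0.0489), a call lost without DMSO replicate 1 (0.0838), DMSO replicate 2 (0.0782), CuB replicate 1 (0.123), CuB replicate 2 (0.101) or CuB replicate 3 (0.0531). Of the other genes of glutathione breakdown in the list, CHAC2 (0.19, limma adjusted p = 0.392) and GGCT (0.13, 0.323) did not pass and GGT1 was below the filter.

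Of 10 other glutathione peroxidase and transferase genes 5 fell (50.0%, against 15.6% of all tested genes), and the remaining 5 did not pass. The largest differences were those of GPX7, a peroxidase of the endoplasmic reticulum (-0.66, limma adjusted p = 0.0478), MGST2, a microsomal transferase (-0.54, 0.0426), and GSTM1 (-0.36, 0.0435). All 3 calls were lost without CuB replicate 2 (limma adjusted p = 0.103, 0.0947 and 0.129), CuB replicate 3 (0.0672, 0.12 and 0.129) or DMSO replicate 1 (0.139, 0.123 and 0.0980). Without DMSO replicate 2, GPX7 (0.0950) and GSTM1 (0.0787) were lost, without DMSO replicate 3 MGST2 (0.123) and GSTM1 (0.0504), and without CuB replicate 1 MGST2 (0.0509). GSTK1 (-0.31, limma adjusted p = 0.0293) and ESD (-0.36, 0.0373) fell too. Both were lost without CuB replicate 2 (0.126 and 0.115), CuB replicate 3 (0.0700 and 0.116), DMSO replicate 1 (0.0752 and 0.114) or DMSO replicate 3 (0.0820 and 0.113). All 5 falls were thus lost without CuB replicate 2, CuB replicate 3 or DMSO replicate 1. Among 18 thioredoxin, glutaredoxin and repair genes 4 rose (22.2%, against 22.9% of all tested genes) and 2 fell (11.1%, against 15.6%). SESN2, a stress-induced sestrin, went from 5.88 ± 0.802 to 83.2 ± 6.66 FPKM (3.62, limma adjusted p = 3.82e-06), and TXNIP, an inhibitor of thioredoxin, from 8.29 ± 1.33 to 37.9 ± 1.32 FPKM (2.07, limma adjusted p = 3.49e-05). SESN3, another sestrin, fell (-0.59, limma adjusted p = 0.0177; -1.03 with limma-voom), a call lost without CuB replicate 2 (0.0641), CuB replicate 3 (0.0556), DMSO replicate 1 (0.0690) or DMSO replicate 3 (0.0601).

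Iron and heme genes beside the ferritins and HMOX1 gave 3 rises and 2 falls among 18 tested. These were 16.7% and 11.1%, against 22.9% and 15.6% of all tested genes. ALAS1, the first enzyme of heme synthesis, was at 28.5, 27.5 and 26.3 FPKM with DMSO and 61.9, 57.7 and 54.3 FPKM with CuB (1.05, limma adjusted p = 0.000141). TFRC, the transferrin receptor that brings iron into the cell, was at 28.4, 24.5 and 30.2 FPKM with DMSO and 47.3, 48.5 and 46.6 FPKM with CuB (0.76, limma adjusted p = 0.00107). CYBRD1, a ferric reductase, fell from 7.31 ± 0.550 to 3.93 ± 0.182 FPKM (-0.75, limma adjusted p = 0.000887). The iron transporter SLC11A2 (-0.06, limma adjusted p = 0.694) and the ferric reductase STEAP3 (-0.03, 0.885) did not pass. Of 14 other NADPH genes 2 rose, MTHFD2 (2.10, limma adjusted p = 2.8e-05) and ALDH1L2 (1.81, 0.000118) of mitochondrial folate metabolism, and 3 fell, with the largest fall in IDH1, cytosolic isocitrate dehydrogenase (-0.83, 0.00214). Among 8 quinone and carbonyl reductases 2 fell, AKR1C2 (-0.55, limma adjusted p = 0.0121; -1.06 with limma-voom) and CBR1 (-0.42, 0.0291), of which CBR1 lost the call when any library other than CuB replicate 3 was left out (0.0515 to 0.0890). Only 2 of 15 oxidases that make superoxide or peroxide reached the filter, and 0 passed with limma, with 0 at an unadjusted p under 0.05 and 0 with limma-voom. CYBA, the oxidase subunit with the highest mean, was at 18.7, 35.8 and 16.2 FPKM with DMSO and 11.7, 17.2 and 21.1 FPKM with CuB, with groups that overlapped (-0.43, 95% interval -1.18 to 0.32, limma adjusted p = 0.323). Of the 13 below the filter, XDH was higher without overlap, with means of 0.34 ± 0.0652 and 0.961 ± 0.0697 FPKM (27 to 89 fragments in a library). NOXA1 (2 to 17 fragments in a library), MAOA (50 to 128) and MAOB (3 to 32) were lower without overlap, and groups of the others overlapped. Among all tested genes 51.5% had separate groups. Changes in these 13 were not tested.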

How the data were processed

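The authors deposited 1 table of FPKM for 58735 genes in 3 DMSO and 3 CuB libraries of polyadenylated RNA, made with a kit that does not mark strand, per the labels' protocols. Per the submitters' processing notes the build was GRCh38. For the aligner, the counter, its handling of overlapping genes and the FPKM scaling, details were not given in the sources used here. Gene identifiers, starts and ends were all found in GENCODE 29. FPKM times gene length gave whole fragments for 100% of values within 0.01 of a fragment. The library sizes implied by the deposited FPKM were 1.033 to 1.036 times the fragment totals for DMSO and 0.914 to 0.9265 times for CuB.

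Values were tested as log2(FPKM + 1) with limma 3.58.1 (R 4.3.3), with an intensity trend and no replicate block, over 13273 genes whose mean was 1 FPKM or more, with Benjamini-Hochberg adjustment over all of them and 4 residual degrees of freedom. Pair ratios were compared by exact permutation tests in Python 3.11.15. The fit was also run on simulated fragments, with independent replicates and no GC differences between libraries. That setting is simpler than these data, so no call rests on it. Alternatives were pseudocounts of 0.1 and 0.5, no filter, a filter at 5 FPKM, equal sums of FPKM (TPM), median of ratios, quantile normalization, equal fragment totals, no trend, limma-voom with TMM factors on recovered fragments, a replicate block and each library left out. A GC correction (lowess, span 0.3), alone and with the block, was chosen after seeing the data. The 39 genes, the pathway and marker lists and the motifs were chosen with earlier results of these data known. All 39 genes are accounted for. Of each pathway list, up to 3 genes with the largest change among those that passed were named, or the gene with the highest mean where none passed. Named outside this rule were SLC7A11, GGT7, CHAC2, GGCT, GGT1, GSTK1, ESD, SLC11A2, STEAP2, STEAP3, XDH, NOXA1, MAOA and MAOB. The result of 1 marker gene is not reported here.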

Additional observations from a re-analysis of the deposited data

How the results depend on the processing

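Of 715 values of single genes under the alternatives, 631 stayed on the same side of the threshold, 47 lost the call and 36 gained one. No gene that passed changed sign (0 values), and 11 genes that did not pass did so in 37 values. In 1 of these the new direction passed: TALDO1 went from 0.00 to -0.21 under quantile normalization (limma adjusted p = 0.0487). The number of genes of the set that rose, 9, lay between 6 and 9 with all libraries and between 6 and 11 with 1 library left out. The number that fell, 7, was 4 with a filter at 5 FPKM, 11 with equal sums of FPKM, 14 under quantile normalization, 14 with equal fragment totals, 13 with the GC correction and 12 with the GC correction and the block, and 4 (without CuB replicate 2) to 8 with 1 library left out. The number of other pathway genes that fell, 15, was 9 without a filter, 27 with the GC correction and 24 with that correction and the block, and 5 (without CuB replicate 2 or DMSO replicate 1) to 12 with 1 library left out, with 8 without CuB replicate 3 or DMSO replicate 3. The cause was not tested. Of all calls 59.5% were rises as deposited, 46.7% with equal sums of FPKM, 47.1% under quantile normalization, 51.9% with limma-voom and 39.3% with equal fragment totals, which moved the median of all genes from 0.0548 to -0.0841 on the log2 scale. With a filter at 5 FPKM the share was 69.7%.

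Deviations of same-numbered libraries from their group means correlated at 0.269, 0.118 and -0.357, and those of DMSO replicate 2 and CuB replicate 3 at 0.469. These deviations went with GC content and the correlations were not repeated after the GC correction. They cannot show whether replicate numbers pair the libraries. With the replicate block 7 genes of the set rose, 5 fell and 9 other pathway genes fell, and the pair ratios kept their differences, from -2.88 to 1.59, at exact sign-flip p of 0.25 or 0.5. OSGIN1, SRXN1 and GSTM2, with as few as 14, 55 and 9 fragments in a library, are limited by depth.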
